A study of Mus musculus with 6 samples.

Results

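Krüppel-like factors (KLFs) that control axon growth were followed in ipsilateral and contralateral retinal ganglion cells (RGCs), neurons that send their axons to the same or to the opposite side of the brain. The 10 genes were Klf2, Klf3, Klf4, Klf5, Klf6, Klf7, Klf9, Klf10, Klf13 and Klf15, and every probe set of the array whose annotation named exactly 1 of these symbols was taken, which gave 34 of 45037 probe sets for 10 of the 18193 genes measured. Both RGC populations came from wild-type C57BL/6J mouse embryos at E16.5 (labelled day 16). In each of 3 rounds a rhodamine dextran dye was left for 2 h on the cut optic tract, the retinas of 2 litters were pooled by side, and labeled living cells were collected by FACS, so that a round gave 1 ipsilateral and 1 contralateral sample and there were 3 arrays of each. No transgene or treatment is named for either population, the cDNA was amplified before hybridization, and the rounds had been selected for high Zic2 in the ipsilateral cells. Values are log2 intensities that the authors made with RMA, and each difference is ipsilateral minus contralateral on that log2 scale.

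KLFs are transcription factors that bind GC-rich and CACCC sequences in DNA through zinc fingers at the carboxy end of the protein. In cultured central neurons and in injured RGCs of rodents, Klf4 and Klf9 hold back neurite and axon growth, whereas Klf6 and Klf7 promote it, and as RGCs mature after birth the suppressing genes gain and the promoting ones lose expression. Several family members also respond quickly to stimulation, like the immediate early genes, and Klf2 and Klf4 are well known in blood vessel endothelium and in myeloid cells.

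The start regions of the 4 genes that the growth experiments set against each other are shown first. Those of Klf4 and Klf7 differ in the GC and CACCC boxes searched here, and those of Klf9 and Klf6 hold neither box. Each stretch runs 5′ to 3′ from 250 bases before to 50 bases after a transcription start (RefSeq, build GRCm38.p6), and capitals mark the GC box GGGGCGGGG, the CACCC box CCACCC and the CCAAT box CCAAT on either strand. The window of Klf4 lies at chr4:55532426-55532725 on the minus strand, that of Klf9 at chr19:23140976-23141275 on the plus strand, that of Klf6 at chr13:5861239-5861538 on the plus strand and that of Klf7 at chr1:64121340-64121639 on the minus strand.
Klf4: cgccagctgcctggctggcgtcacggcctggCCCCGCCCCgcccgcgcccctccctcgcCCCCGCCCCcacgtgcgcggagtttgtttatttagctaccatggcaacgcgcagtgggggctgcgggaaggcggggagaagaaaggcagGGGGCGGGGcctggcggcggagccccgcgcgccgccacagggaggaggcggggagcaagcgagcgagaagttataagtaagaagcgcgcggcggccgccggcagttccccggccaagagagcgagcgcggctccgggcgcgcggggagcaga
Klf9: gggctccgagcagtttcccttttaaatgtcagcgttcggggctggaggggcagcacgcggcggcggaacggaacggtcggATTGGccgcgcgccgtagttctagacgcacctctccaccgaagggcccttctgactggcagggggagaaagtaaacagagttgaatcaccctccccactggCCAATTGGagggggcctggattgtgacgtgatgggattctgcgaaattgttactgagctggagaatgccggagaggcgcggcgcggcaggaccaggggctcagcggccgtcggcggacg
Klf6: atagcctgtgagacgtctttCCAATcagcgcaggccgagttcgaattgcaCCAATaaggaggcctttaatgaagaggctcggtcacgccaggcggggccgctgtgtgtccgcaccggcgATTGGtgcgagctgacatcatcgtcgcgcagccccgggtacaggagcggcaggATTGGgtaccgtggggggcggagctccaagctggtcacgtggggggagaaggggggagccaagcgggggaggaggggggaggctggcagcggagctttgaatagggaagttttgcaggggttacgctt
Klf7: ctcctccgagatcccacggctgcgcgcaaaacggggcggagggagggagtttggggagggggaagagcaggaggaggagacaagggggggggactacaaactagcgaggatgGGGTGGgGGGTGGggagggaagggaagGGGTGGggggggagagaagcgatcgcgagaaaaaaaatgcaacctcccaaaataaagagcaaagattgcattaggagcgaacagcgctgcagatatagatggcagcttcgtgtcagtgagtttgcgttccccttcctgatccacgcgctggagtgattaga

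The Klf4 window held 3 GC boxes and none of the other boxes, the Klf7 window held, of these, 3 CACCC boxes only, and the windows of Klf9 and Klf6 held, of these boxes, only CCAAT (3 and 4, of which 2 in Klf9 overlap each other on opposite strands). Promoter sequences were matched for 8 of the 10 genes (not Klf5 and Klf10). The GC box was present in 5 of the 8 windows and in 11.4% of 32841 mouse promoters of the same length, the CACCC box in 4 and in 31.5%, and the CCAAT box in 4 and in 37.4%. Of motifs tied to stimulus responses, also searched on both strands, the cAMP response motif TGACGT was present in 2 of the 8 windows, those of Klf9 and Klf13 (7.51% of all promoters), and the AP-1 site TGANTCA in 1, that of Klf9 (7.81%). The serum response factor (CArG) box was found in 0 of the 8 (1.63%), which says only that these letters are not in these windows. The Klf4 window had a GC content of 74.3%, that of Klf9 63.3%, that of Klf6 63.0% and that of Klf7 58.3%, against a median of 52.7% over all promoters. A match is a description of the sequence, not a measured site.

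Of the 34 Klf probe sets, 28 had a mean log2 value of at least 4.74, the 20th percentile of the array and the level from which probe sets were tested, and all 10 genes had at least 1 of them. The other 6 were 3 of Klf9, 2 of Klf5 and 1 of Klf3, with mean log2 values from 3.23 to 4.56. A probe set was called where limma, without pairing the samples of a round, gave at least 2-fold and p under 0.05 after Benjamini–Hochberg adjustment over 36029 probe sets. Of the 28 Klf probe sets, 1 was called higher in ipsilateral RGCs (3.57%), as were 0.244% of all probe sets tested, and 0 were called lower (0 in the whole table). At 2-fold and an unadjusted limma p under 0.05, 5 Klf probe sets passed (17.9%, against 2.29% of all probe sets in either direction), each higher in ipsilateral RGCs, namely both of Klf4 and 1 each of Klf2, Klf6 and Klf9. With no fold threshold, 6 had an unadjusted p under 0.05 (2.66% of all probe sets), each higher in ipsilateral RGCs. With the round as a block (the replicate block), limma called the same Klf4 probe set and no other of the 28, where 0.208% of all probe sets were called, while 15 of 28 had an unadjusted p under 0.05 (53.6%, against 13.9%). These 15 include probe sets of Klf7, lower in ipsilateral RGCs, and several probe sets of 1 gene are not separate results. At the brightest probe set (highest mean) of each gene, 5 of 10 genes had such a p, against 2230 of 15346 genes.

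**Figure D1:**
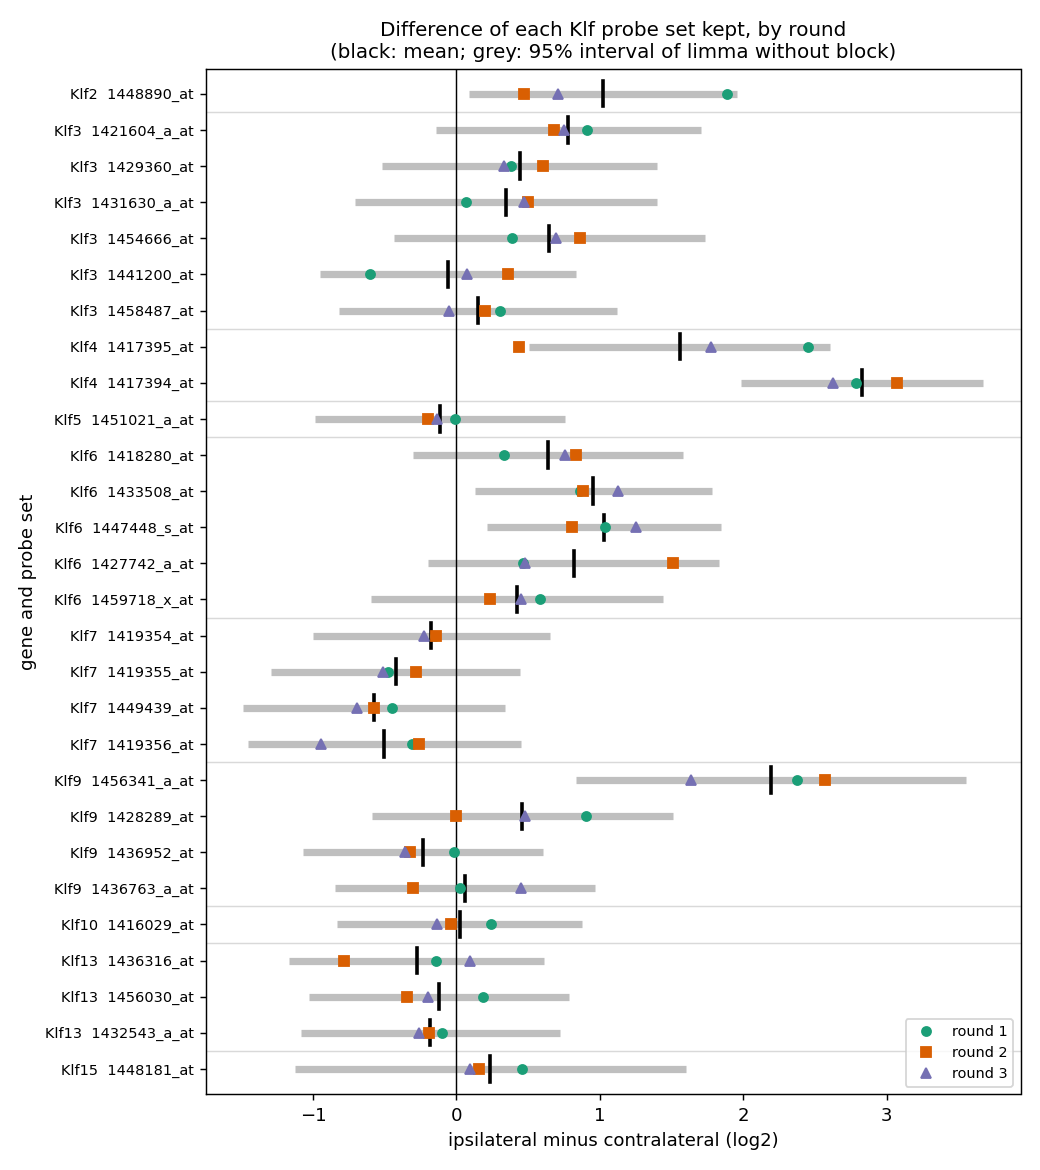
Ipsilateral minus contralateral log2 difference (horizontal axis) of the 28 Klf probe sets tested (vertical axis, by gene, brightest first). Symbols are the 3 rounds, black bars their means and grey bars the 95% intervals from limma without a block. Both Klf4 probe sets and 1 of Klf9 lie farthest to the right, all 5 of Klf6 lie right of 0 in each round, and all 4 of Klf7 lie left of 0 in each round.

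Ipsilateral RGCs had the higher value in each round at 14 of the 28 probe sets (50%, against 16.7% of all probe sets), and the lower value in each round at 7 (25%, against 19.7%). Read at the brightest probe set of each gene, 6 of 10 genes were higher in each round (17.6% of all genes) and 2 lower (20.2%). The 3 ipsilateral arrays lay wholly above the 3 contralateral arrays in 4 Klf probe sets (14.3%, against 3.26% of all), which were both of Klf4 and 2 of Klf6, and wholly below them in 0 (2.03% of all). The median log2 difference of the 28 was 0.29, beside −0.02 over all probe sets tested.

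Klf4, the suppressor of axon growth that is also a pluripotency factor in stem cells and an early response gene, was higher in ipsilateral RGCs in each round at both of its probe sets. Limma called 1 of these 2. At 1417394_at its log2 values were 8.28, 7.98 and 7.78 in ipsilateral RGCs of rounds 1 to 3, against 5.49, 4.91 and 5.16 in contralateral RGCs of the same rounds. Each ipsilateral array was well above each contralateral one, and the differences of the rounds lay close together. The log2 difference was 2.83 (SE 0.39, limma adjusted p = 0.00728), which is 7.10-fold, and it was 2.79, 3.07 and 2.63 within rounds 1 to 3. Under the replicate block it passed too (adjusted p = 0.0159), and over the 6 fits that left out an array the adjusted p lay between 0.00247 and 0.0267. Of the alternatives run, only a second quantile normalization took its adjusted p past the threshold (0.0501), at a difference that was again 2.83 and an SE of 0.42. Both Klf4 probe sets, and 1447448_s_at of Klf6, are among those the study itself listed from these arrays as higher in ipsilateral RGCs, so their values are not independent evidence of that direction. Of these, the fit used here called only 1417394_at. The study also found Klf4 higher in sorted ipsilateral RGCs by quantitative PCR.

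The brighter Klf4 probe set, 1417395_at, was annotated with the same transcript record and differed less evenly between rounds. Its log2 values were 8.23, 7.91 and 8.86 in ipsilateral RGCs, against 5.78, 7.47 and 7.09 in contralateral RGCs. The groups again did not overlap, but the within-round differences were 2.45, 0.44 and 1.78, so that round 2, where the contralateral array was bright, gave little. The mean difference of 1.55 (SE 0.49, limma adjusted p = 0.646) did not pass, with a 95% interval of 0.50 to 2.61. The replicate spread differed between the probe sets: 1417394_at averaged 8.01 ± 0.25 in ipsilateral and 5.19 ± 0.29 in contralateral RGCs, and 1417395_at averaged 8.33 ± 0.49 in ipsilateral and 6.78 ± 0.89 in contralateral RGCs (SD, n = 3 each). When all probe sets of a gene were averaged first, Klf4 was called (2.19, SE 0.41, limma adjusted p = 0.00417 over 15346 genes).

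**Figure D2:**
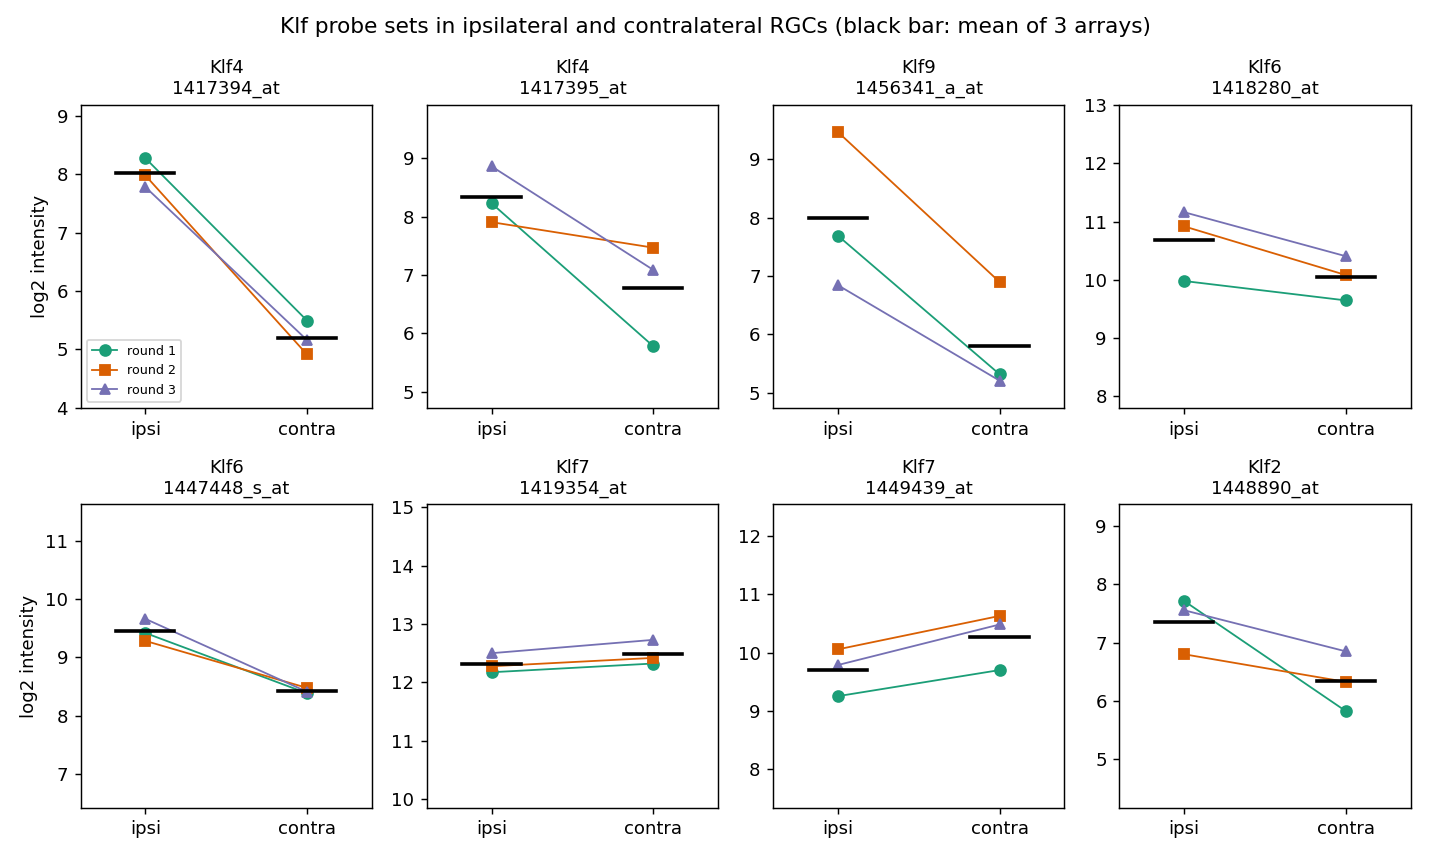
Log2 intensity (vertical axis, each panel spanning the same range) of 8 Klf probe sets in RGCs of the ipsilateral (ipsi) and the contralateral (contra) side. A symbol marks an array, a line connects both sides of a round, and a black bar gives the mean over 3 arrays. Klf9 is shown at its brightest probe set only. By their means the 2 Klf4 panels and the Klf9 panel fall most to the right, although round 2 of 1417395_at falls by only 0.44, Klf6 and Klf2 fall less, and Klf7 climbs slightly in every round.

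Klf9, the other suppressor, a gene induced by thyroid hormone and glucocorticoids, had a large difference at its brightest probe set only. At 1456341_a_at the log2 values were 7.69, 9.47 and 6.84 in ipsilateral RGCs, against 5.32, 6.90 and 5.21 in contralateral RGCs. Round 2 was the brightest on both sides, so the groups overlapped, yet the ipsilateral sample was higher in each round, by 2.38, 2.57 and 1.64. The mean difference was 2.20, or 4.58-fold (SE 0.63, limma adjusted p = 0.461). The replicate block left it just short of the threshold (adjusted p = 0.0504), and without contralateral replicate 2 and with no block the adjusted p was 0.0370 at a difference of 2.74. No other of the 6 fits that left out an array passed. Without ipsilateral replicate 2 the difference was 1.46 (limma adjusted p = 0.904).

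The other Klf9 probe sets did not share this difference. At 1428289_at it was 0.46 (SE 0.49), at 1436952_at −0.23 (SE 0.39) and at 1436763_a_at 0.06 (SE 0.42), each at a limma adjusted p of 1. The 3 Klf9 probe sets under the filter level differed by −0.02 to 0.12. Among the 12 within-round comparisons of the 4 tested probe sets, ipsilateral RGCs were higher in 7, contralateral RGCs in 4, and 1 was an exact tie. The mean over the 4 probe sets gave a difference of 0.62 (SE 0.44), against 2.20 at the brightest, so for Klf9 the result rests on which probe set is read.

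Klf6, a growth promoter that is also an early response gene, was higher in ipsilateral RGCs at all 5 probe sets and in all 15 within-round comparisons. At its brightest, 1418280_at, the log2 values were 9.98, 10.92 and 11.16 in ipsilateral RGCs, against 9.65, 10.08 and 10.40 in contralateral RGCs. Round 1 was the dimmest on both sides and the groups overlapped. The difference was 0.64 (SE 0.44, limma adjusted p = 1, 95% interval −0.30 to 1.58). Under the replicate block the 95% interval was 0.22 to 1.06 (limma adjusted p = 0.217). The tightest values were those of 1447448_s_at, at 9.42, 9.28 and 9.66 in ipsilateral RGCs, against 8.38, 8.48 and 8.41 in contralateral RGCs. Here no arrays overlapped and the difference was 1.03, or 2.04-fold (SE 0.38, limma adjusted p = 1, unadjusted p = 0.0171). Another probe set, 1433508_at, behaved alike, with values of 9.66, 9.97 and 10.14 in ipsilateral RGCs, against 8.80, 9.09 and 9.02 in contralateral RGCs, and a difference of 0.95 (SE 0.39, limma adjusted p = 1). Over the 5 probe sets the differences ran from 0.42 to 1.03, and under the replicate block the adjusted p of 1447448_s_at and of 1433508_at was 0.104 each. The suffix of 1447448_s_at marks probes that may be shared by transcripts of more than 1 gene.

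Klf7, a growth-promoting gene whose loss impairs sensory and olfactory axons in mice, went the other way, lower in ipsilateral RGCs at all 4 probe sets and in all 12 within-round comparisons. At its brightest, 1419354_at, the log2 values were 12.17, 12.28 and 12.50 in ipsilateral RGCs, against 12.32, 12.42 and 12.73 in contralateral RGCs. The within-round differences of −0.15, −0.14 and −0.23 were small and nearly equal, and the groups overlapped. The largest difference was at 1449439_at, with log2 values of 9.25, 10.06 and 9.79 in ipsilateral RGCs, against 9.70, 10.63 and 10.48 in contralateral RGCs. It came to −0.57 (SE 0.43, limma adjusted p = 1, 95% interval −1.49 to 0.34), and the replicate block brought its adjusted p to 0.210. Without the block the 95% intervals of the 4 Klf7 probe sets reached no lower than −1.49 and no higher than 0.65. Under the replicate block they were −0.52 to 0.17 at 1419354_at and −0.78 to −0.06 at 1419355_at. At 1449439_at the block interval was −0.93 to −0.21, and at 1419356_at −0.98 to −0.03. Klf7 thus differed from Klf6 in direction in each round, although both promote growth, and that difference between the genes was not tested.

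The growth-suppressing genes were set against the growth-promoting ones within each round, each gene at its brightest probe set. The mean difference of Klf4 and Klf9 was 2.41, 1.5 and 1.71 in rounds 1 to 3, and that of Klf6 and Klf7 was 0.09, 0.35 and 0.26. The growth-suppressing pair thus exceeded the growth-promoting pair by 2.32, 1.16 and 1.44, with a mean shift toward growth suppression genes in ipsilateral RGCs of 1.64 ± 0.61 on the log2 scale (SD, n = 3 rounds). The shift had the same sign in each round, and as a score over chosen genes it was not tested. With the mean of all tested probe sets of a gene in place of the brightest it was 1.23. The differences were then 2.19 for Klf4, 0.62 for Klf9, 0.77 for Klf6 and −0.42 for Klf7. Klf9 thus lay below Klf6 by this measure, so the shift does not hold for each suppressing gene against each promoting one. At the gene level 0 of 10 Klf genes passed limma at the brightest probe set (0.358% of all genes were called higher), and 3, Klf2, Klf4 and Klf9, were 2-fold different at an unadjusted limma p under 0.05 (2.63% of all genes).

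**Figure D3:**
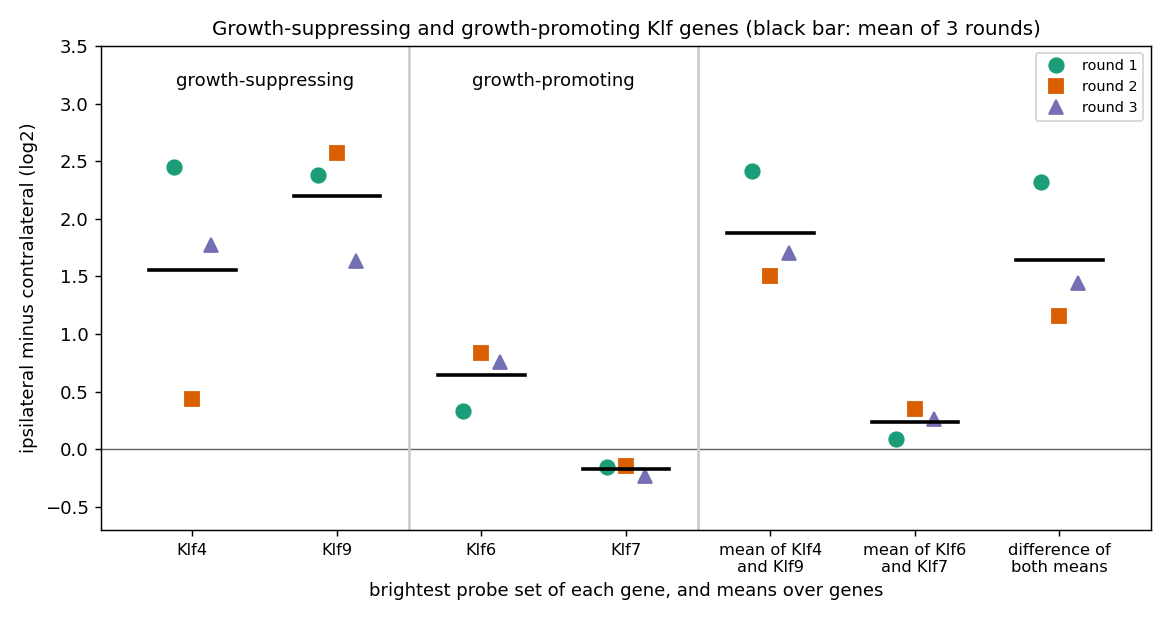
Ipsilateral minus contralateral log2 difference (vertical axis) of Klf4, Klf9, Klf6 and Klf7 at the brightest probe set of each, of the means of both pairs and of the difference between those means (horizontal axis). Symbols are the 3 rounds and black bars their means. Klf4 and Klf9 are above 0 in every round but spread widely, Klf6 is above 0 and Klf7 below 0 in every round, and the difference of both means stays between 1.16 and 2.32.

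Of the members outside these pairs, Klf2, a factor of quiescent endothelium and lymphocytes, had the largest difference. Its 1 probe set had log2 values of 7.71, 6.80 and 7.55 in ipsilateral RGCs, against 5.82, 6.33 and 6.85 in contralateral RGCs. Round 1 carried most of the difference, at 1.89, with 0.47 and 0.71 in rounds 2 and 3, and the arrays of both sides overlapped. The mean was 1.02 (SE 0.43, limma adjusted p = 1), or 2.03-fold.

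Klf3, a repressor that works through the CtBP corepressors, was higher in ipsilateral RGCs in 16 of the 18 within-round comparisons of its 6 tested probe sets. At the brightest, 1421604_a_at, the log2 values were 8.81, 9.63 and 9.09 in ipsilateral RGCs, against 7.90, 8.95 and 8.34 in contralateral RGCs. Within rounds the differences were alike, at 0.91, 0.68 and 0.75, whereas the levels of the rounds lay farther apart than the sides. The mean was 0.78 (SE 0.43, limma adjusted p = 1), and under the replicate block the adjusted p was 0.139. The other 5 tested probe sets of Klf3 ranged from −0.06 to 0.65.

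Klf5, Klf10, Klf13 and Klf15 had smaller mean differences, from −0.28 to 0.24. Klf10, induced by TGF-beta, had log2 values of 7.94, 8.32 and 8.17 in ipsilateral RGCs, against 7.71, 8.36 and 8.30 in contralateral RGCs, and a difference of 0.02 (SE 0.40, 95% interval −0.83 to 0.87). Klf13, a relative of Klf9 in sequence, had differences of −0.28, −0.12 and −0.18 at its 3 probe sets, lower in ipsilateral RGCs in 7 of 9 within-round comparisons. Klf5, an epithelial factor, was tested at 1 dim probe set with a mean log2 value of 4.86 and a difference of −0.11 (SE 0.41). Klf15, which responds to glucocorticoids, had log2 values of 4.94, 6.25 and 7.06 in ipsilateral RGCs, against 4.49, 6.09 and 6.96 in contralateral RGCs, so that its values differed more between rounds than between sides. The difference was 0.24 (SE 0.63, 95% interval −1.13 to 1.60). Each of these had a limma adjusted p of 1 without the block, where the intervals leave room for sizeable changes in either direction. Under the replicate block the 95% intervals were narrower. They were −0.36 to 0.40 for Klf10, −0.47 to 0.24 for Klf5 and −0.14 to 0.62 for Klf15. At the 3 Klf13 probe sets they reached no lower than −0.80 and no higher than 0.30.

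In the rest of the KLF and SP family no gene passed. Of 16 listed relatives, 13 were matched to a probe set and 11 tested, of which 9 were lower and 2 higher in ipsilateral RGCs, 4 lower in all 3 rounds (20.2% of all genes) and 0 higher in all 3 (17.6% of all genes). Limma called 0, and 0 had an unadjusted p under 0.05 without the block. Under the replicate block 2 of the 11 had such a p (2230 of 15346 genes), and 0 were called. The largest were Klf16 at −0.51 (SE 0.47) and Sp4, a neuronal relative of Sp1, at −0.46 (SE 0.40), and the median log2 difference of the 11 was −0.10, beside −0.01 over all genes tested. The corepressors, coactivators and ubiquitin ligases that act with KLFs had a median of 0.08 over 13 genes, with 0 called and 0 at an unadjusted p under 0.05. The largest were Sin3a, the corepressor recruited by Klf9 and its relatives, at 0.45 (SE 0.41), and Kat2a, a histone acetyltransferase, at −0.30.

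The next list held genes through which Klf4, Klf7 and Klf9 are known to act in neurons. Of 14 tested, limma called 0, 1 had an unadjusted p under 0.05 (3.04% of all genes), and ipsilateral RGCs had the lower mean at 10, for 6 of which each round had that sign (20.2% of all genes), with a median log2 difference of −0.14. The 1 was Socs3, an inhibitor of cytokine signaling that restrains RGC axon regeneration, at 1.49 (SE 0.46, limma adjusted p = 0.606), with 1.77, 0.31 and 2.38 in rounds 1 to 3. Stat3, the cytokine effector that Klf4 binds, had a difference of −0.08 (SE 0.59). Mapk10, which encodes the neuronal kinase JNK3 that partners Klf9, had −0.66 (SE 0.42), and Dusp14, a phosphatase downstream of Klf9, had 0.10 (SE 0.43). Gap43 and L1cam, growth cone and adhesion genes linked to Klf7, had −0.29 and −0.40, a sign shared with Klf7 and with most of this list. In the same list Cdkn1a had −0.15, whereas Cdkn1b went the other way with 0.29.

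Other genes of intrinsic axon growth had a median log2 difference of −0.19 over 17 tested, with 0 called by limma and 2 at an unadjusted p under 0.05 (3.04% of all genes). Under the replicate block 5 of the 17 had such a p (2230 of 15346 genes). In all 3 rounds 8 were lower (20.2% of all genes) and 4 higher (17.6%). Atf3, an injury-induced factor, had log2 levels of 7.55 in ipsilateral and 5.48 in contralateral RGCs, a difference of 2.07 (SE 0.52, limma adjusted p = 0.248), and was called once the rounds were blocked (adjusted p = 0.0412). Jun, its partner, had 0.92 (SE 0.40, limma adjusted p = 1), while Sox11, a factor of growing RGC axons, had −0.19 (SE 0.38). Atf3, Jun and Socs3 also count among the immediate early genes.

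Markers of other cells and of early responses moved with the same samples and are given beside the Klf values for that reason. For comparison with each list, 0.358% of all genes tested were called higher and 17.6% were higher in all 3 rounds. With the replicate block 49 of 15346 genes were called higher. Of 34 tested immediate early genes, 3 were called higher, Egr2 (4.14, SE 0.50), Zfp36 (3.16, SE 0.46) and Zfp36l1 (2.83, SE 0.45), with limma adjusted p values of 0.00281, 0.00905 and 0.0156, and 23 were higher in all 3 rounds (17.6% of all genes). Under the replicate block Zfp36l1 was not called (adjusted p = 0.0918), Egr2 and Zfp36 were, and so were Fos and Atf3, which were not called without it. Their median log2 difference was 0.68, 0.40 and 0.59 in rounds 1 to 3, and their summed intensity was log2 14.03 to 14.68 in ipsilateral RGCs, against 13.07 to 13.96 in contralateral RGCs. Of 20 tested microglia and macrophage genes, 12 were called and 18 were higher in all 3 rounds, led by the complement gene C1qb (5.88) and by Csf1r (5.68) and Ctss (5.29), with medians of 4.19, 3.41 and 2.58. Blocking by round kept 10 of the 12 calls and lost those of Cd53 and P2ry12. Their summed intensity was log2 13.27 to 13.98 in ipsilateral RGCs, against 9.36 to 10.55 in contralateral RGCs, so that no arrays overlapped. Progenitor genes (15 tested, 13 higher in all 3 rounds, and Fabp7, Sox2 and Sox9 called, of which 0 were called with the replicate block, where Ccnd2 was) had medians of 1.23, 1.56 and 2.53, with summed intensities of 12.79 to 13.72 in ipsilateral against 11.91 to 12.18 in contralateral RGCs. Proliferation genes (13 tested, 12 higher in all 3 rounds, and Spc25 called, but not with the replicate block) had medians of 1.27, 1.45 and 2.51, with summed intensities of 12.55 to 14.00 in ipsilateral against 11.18 to 11.32 in contralateral RGCs. The part of these cells in the Klf4, Klf9, Klf6 and Klf2 values was not tested. In pooled sorted cells, fewer cells of a type and less RNA per cell cannot be told apart.

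Endothelial and pericyte genes, listed because vessels express Klf2 and Klf4, had a median of −0.0026 over 15 tested, summed intensities of log2 9.79 to 10.83 in ipsilateral against 9.64 to 10.46 in contralateral RGCs, 0 called by limma and 1 at an unadjusted p under 0.05, the VEGF receptor gene Kdr (1.02, SE 0.47), which retinal progenitors also express. The next in size was the pericyte gene Notch3 (0.66). Of the 22 listed, 7 were under the filter level, among them the endothelial genes Cdh5, Tek and Tie1. Astrocyte genes (4 tested, median 0.03, such as Pdgfra at −0.37 and S100b at 0.14) and genes of surface epithelium and lens (7 tested, median −0.04, such as Krt5 at −0.12 and Krt18 at 0.11) had 0 called by limma and 0 at an unadjusted p under 0.05. The 14 tested RGC genes, such as Thy1 (−0.83, SE 0.60) and Slc17a6 (−0.92, SE 0.44), had array medians of 10.85 to 11.32 in ipsilateral and 11.37 to 11.79 in contralateral RGCs. All 14 were lower in ipsilateral RGCs in each round (20.2% of all genes), as Klf7 was. Without the block 0 were called by limma or had an unadjusted p under 0.05. Under the replicate block 8 of the 14 had an unadjusted limma p under 0.05 (2230 of 15346 genes), and again 0 were called.

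**Figure D4:**
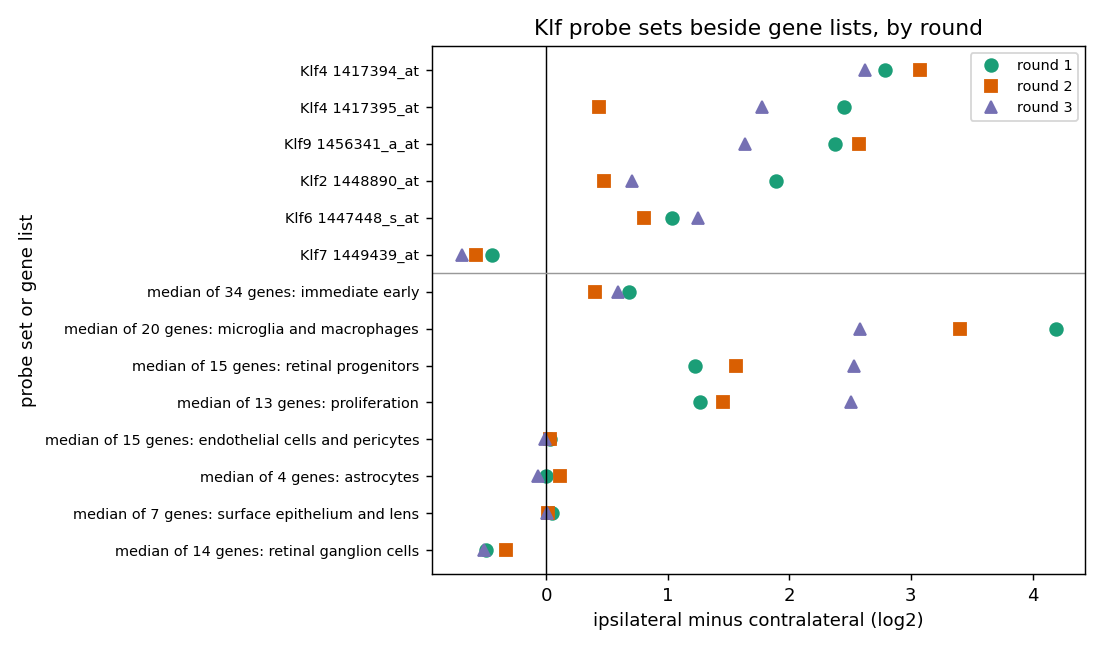
Ipsilateral minus contralateral log2 difference (horizontal axis) of 6 Klf probe sets and, below the line, the median difference of 8 gene lists (vertical axis). Symbols are the 3 rounds. Shown are both Klf4 probe sets, that of Klf2, only the brightest of Klf9, and those of Klf6 and Klf7 with the largest difference. At these probe sets Klf4, Klf9, Klf2 and Klf6 lie right of 0, as do immediate early, microglia, progenitor and proliferation genes. Klf7 lies left of 0 with the RGC genes.

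Among 15336 genes outside these 10, those whose 3 within-round differences lay nearest to Klf4 at 1417394_at were Maf, Pdpn, Epas1, Olfml3 and Ccnd2, at root mean square distances of 0.25 to 0.36 on the log2 scale. Maf, a bZIP transcription factor, differed by 2.51, 3.10 and 2.29 in rounds 1 to 3, beside 2.79, 3.07 and 2.63 for Klf4, and was called (2.63, SE 0.45, limma adjusted p = 0.0259). Pdpn, which encodes the membrane glycoprotein podoplanin, was also called (2.84, SE 0.43, limma adjusted p = 0.0124). Epas1 (2.77), Olfml3 (2.59) and Ccnd2 (2.84), which encodes cyclin D2, had limma adjusted p values of 0.0794, 0.121 and 0.160. The study itself listed all of these genes, at the same probe sets, as higher in ipsilateral RGCs. The likeness rests on 3 rounds and is a description.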

How the data were processed

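RNA from sorted E16.5 ipsilateral and contralateral RGCs was measured on 6 Affymetrix mouse genome arrays, 3 per population. The authors deposited log2 intensities for each probe set, which they obtained with RMA (background correction, normalization and summary of the probes) in Affymetrix Expression Console 1.1. Array medians were log2 5.81, 6.70 and 6.33 in ipsilateral and 5.80, 6.65 and 6.26 in contralateral RGCs of rounds 1 to 3. Whether all arrays or each round were normalized together is not given in the sources used here. The medians differed more between rounds than between the sides of a round. A fit without a block counts such offsets between rounds as spread. The methods used GeneSpring with thresholds of 2-fold and 0.05 (after Benjamini–Hochberg), which were kept here, and name no test.

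Of 45101 probe sets, 64 controls were left out, and 36029 (15346 genes) with a mean at or above the 20th percentile (log2 4.74) were kept. By the array annotation 34945 probe sets have 1 gene, 932 have several and 9160 have none, and 34741 Entrez identifiers were matched to the RefSeq table (GRCm38.p6), from which symbols were updated. Groups and replicate numbers came from the sample titles. The sides were compared with lmFit and eBayes of limma 3.58.1 (R 4.3.3) without a block. The code was tested on simulated data. Precision is limited by the number of arrays, and an exact permutation test of 3 against 3 cannot go below p = 0.10.

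The replicate numbers pair the samples, since both sides of a round were prepared together. After centring each group, arrays with the same number had correlations of 0.51 to 0.61 across probe sets, and others −0.35 to −0.21. The median SE was 0.44 without and 0.17 with the replicate block.

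Members and gene lists were chosen with earlier results of these data known. A gene in a list was read at its brightest probe set. All members were named, and of each list up to 3 called genes or else the 2 with the largest difference. Other list genes (Stat3, Dusp14, Gap43, L1cam, Cdkn1a, Cdkn1b, Sox11, and the endothelial genes under the filter level) were named for their role, after their values were seen. Alternatives were the replicate block, other filters, quantile normalization, median centring, array weights, eBayes with a trend and robust settings, the mean of all probe sets, other thresholds and leaving out each array.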

Additional observations from a re-analysis of the deposited data

How the results depend on the processing

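Of 28 Klf probe sets 1 was called, and 1 was also called with the replicate block, without a filter, with the filter at the 50th percentile, with median centring, with an intensity trend and at 1.5-fold. With quantile normalization 0 were called: the Klf4 difference stayed at 2.83, while its SE was 0.42 against 0.39 and its adjusted p 0.0501. With array weights 5 Klf probe sets and 2 Klf genes were called (both of Klf4, 2 of Klf6 and 1 of Klf9), the brightest Klf4 probe set at a difference of 1.69, but that fit called 1001 probe sets higher and 148 lower in ipsilateral RGCs, against 88 and 0, and the estimation of the weights stopped before it converged. At an unadjusted p, 5 probe sets and 3 genes passed. With the mean of all tested probe sets, 1 gene passed, Klf4, against 0 at the brightest. With 1 array left out, 1 to 2 probe sets and 0 to 1 genes were called, the second being Klf9 without contralateral replicate 2. Of 341 values of the other Klf probe sets under these alternatives, 336 kept their direction where called and their side of the threshold, 4 newly passed, 1 no longer passed and 0 called values reversed. The shift of growth-suppressing against growth-promoting genes lay between 1.23 and 1.88. Array intensities carry no count of transcripts, and dim probe sets such as those of Klf5 lie near the filter level.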

Other observations

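The exact tie at Klf9 1428289_at, with a log2 value of 6.97 on both arrays of round 2, was not alone. Over 45037 probe sets, the ipsilateral and contralateral arrays of the same round held exactly equal values at 212 probe sets in round 1, 932 in round 2 and 664 in round 3. Arrays of different sides and different rounds were equal at 0 to 2 probe sets. Among the 34 Klf probe sets the tie at Klf9 was the only 1.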
